A study of Rattus norvegicus with 69 samples.

Results

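Ltc4s, the gene of leukotriene C4 synthase, and 9 further genes of leukotriene and prostaglandin formation were followed in rat liver. These 10 of the 38513 genes of the count table were chosen by name: Ltc4s, Alox5, Alox5ap, Lta4h, Alox15, Cysltr1, Ptgs1, Ptgs2, Ptges and Hpgds. The set was proposed because Ltc4s was known from these data to be low after Roux-en-Y gastric bypass (RYGB), so everything that sets RYGB against sham is given as a description, without a p-value, and counts of genes called there are descriptions, too. For Ltc4s this holds for every comparison between groups that uses RYGB or sham libraries.

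Poly(A) RNA of liver from male Wistar rats was sequenced in 69 libraries. The study's treatment groups were adult rats made obese on a high-fat diet, which then had RYGB (labelled Bypass, n = 14) or a sham operation (n = 12), or received liraglutide, a GLP-1 receptor agonist (labelled Lira, n = 5), the gut peptide PYY3-36 by osmotic minipump (labelled PYY, n = 5), both (labelled PYY_Lira, n = 11) or saline (n = 8). By the study's methods, these rats could choose between high-fat and low-fat food during the treatment. Of the animals, 6 on the combination and 3 on saline were fed for longer, but the labels do not say which libraries these are. BWM (n = 8) and Lean (n = 6) are the names given to the remaining 14 libraries, and neither name is explained in the labels or in the study's methods. The libraries carry a batch label, A (n = 41) or B (n = 28). BWM and Lean libraries were all in batch A and PYY3-36 and liraglutide libraries were all in batch B, while the other 4 groups had libraries in both. Batch A holds 6 libraries of the combination and 3 of saline, but no label ties them to the animals fed for longer.

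The genes belong to pathways that start from arachidonic acid, which phospholipases release from membranes. In the leukotriene branch, 5-lipoxygenase (Alox5), presented with its substrate by the activating protein FLAP (Alox5ap), makes the unstable leukotriene A4. Leukotriene A4 hydrolase (Lta4h) turns this into leukotriene B4, a neutrophil attractant. Leukotriene C4 synthase (Ltc4s) instead couples leukotriene A4 to glutathione and so makes the first of the cysteinyl leukotrienes. These contract smooth muscle through receptors such as Cysltr1. In the prostanoid branch, the cyclooxygenases Ptgs1 and Ptgs2 make prostaglandin H2, from which Ptges makes prostaglandin E2 and Hpgds prostaglandin D2. In liver, Kupffer cells are a known source of eicosanoids, and hepatocytes take up cysteinyl leukotrienes and clear them into bile.

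Ltc4s and Lta4h compete for leukotriene A4 and their RNA levels behaved differently, so the 250 bases before the start of each gene are shown here. They are RefSeq sequences on the build GRCr8, from a table that gave 6 of the 10 genes, whereas the counts were made on Rnor_6.0. Capitals mark every match on either strand to the letters of 5 motifs. A TATA box was searched by the letters TATAAA. The CCAAT box was searched by the letters of its name and a GC box by GGGCGG. Sites of GATA factors were searched as AGATAA, with TGATAA as an alternative form. An AP-1 site was searched as TGANTCA. The Ltc4s sequence is chr10:35063595-35063844 on the minus strand and that of Lta4h is chr7:29856621-29856870 on the plus strand.
Ltc4s: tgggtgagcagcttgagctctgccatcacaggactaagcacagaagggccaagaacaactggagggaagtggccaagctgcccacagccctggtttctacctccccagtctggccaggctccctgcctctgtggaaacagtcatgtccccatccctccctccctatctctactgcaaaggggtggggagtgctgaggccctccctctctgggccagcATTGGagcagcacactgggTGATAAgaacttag
Lta4h: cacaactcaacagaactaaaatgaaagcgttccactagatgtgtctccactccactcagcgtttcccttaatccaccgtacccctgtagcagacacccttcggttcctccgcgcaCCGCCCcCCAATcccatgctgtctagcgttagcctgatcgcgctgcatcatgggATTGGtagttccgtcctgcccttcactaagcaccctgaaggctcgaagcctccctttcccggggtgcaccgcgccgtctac

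The Ltc4s window held a CCAAT match on the minus strand (bases 218 to 222) and a GATA match (bases 237 to 242). The Lta4h window held CCAAT on both strands and a GC box, but no GATA match. Among 33469 promoter windows of this length, 34% held CCAAT, 16.9% GATA, 30.5% the GC box, 12.9% the TATA letters and 6.34% the AP-1 letters, so that none of these matches is rare. They describe letters only and say nothing of binding.

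On Rnor_6.0, Ltc4s (gene ID 114097) lies at chr10:35736486-35743088 on the minus strand. Its 3′ end is separated by 147 bases from that of Mgat4b, a glycosyltransferase gene on the plus strand. The authors counted reads by strand, and 1 of the 69 Ltc4s values was not a whole number. Mgat4b had group medians between 123 and 162 CPM, and its log2 fold change after RYGB was -0.07 against sham (SE 0.135), where that of Ltc4s was -3.95.

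Levels are CPM, read counts relative to library size after TMM scaling, and fold changes, their standard errors (SE) and adjusted p-values come from edgeR's quasi-likelihood test in 1 fit of all 69 libraries with group and batch as terms. Of the 10 genes, 8 passed the filter on low counts. Per kilobase of exon, the medians over 69 libraries were 8.60 CPM for Lta4h, 5.72 for Ptgs1, 1.68 for Ltc4s, 1.59 for Hpgds, 1.10 for Alox5ap, 0.139 for Alox15, 0.0886 for Cysltr1 and 0.0527 for Alox5. The 2 genes that did not pass were Ptgs2, the inducible cyclooxygenase, with 26 counts in all and none in 49 libraries, and Ptges, with 12 counts in all and none in 62 libraries. In bulk liver RNA, fewer cells of a type and less RNA per cell cannot be told apart.

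Total counts per library were between 9110860 and 27559144 (median 21027325). The hepatocyte markers Alb, Apoa1 and Ttr were at or above 39475, 723 and 4141 CPM in every library. The first principal component of log2 CPM (36.0% of the variance) separated the batches, and 6 batch B libraries (sham replicate 12, PYY3-36 replicate 5, liraglutide replicate 4 and liraglutide+PYY3-36 replicates 8, 9 and 11) lay at 112 to 159, the other 22 batch B libraries at 11.1 to 80.0 and the 41 batch A libraries at -57.7 to -3.39. By batch, 60.6% of all genes tested differed. Ltc4s was higher in batch B by 1.84 on the log2 scale (SE 0.360) and Ptgs1 by 0.27 (SE 0.111, edgeR adjusted p = 0.0284), while the 6 genes beside these did not pass. Levels of Ltc4s are therefore given within batches.

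Ltc4s was lowest after RYGB in both batches. In batch A, the 11 RYGB libraries held 0.0884, 0.332 and 1.59 CPM (lowest, median and highest) and the 7 sham libraries 3.27, 8.75 and 25.6 CPM, without overlap. In batch B, the 3 RYGB libraries held 0.664, 0.899 and 5.50 CPM, while the 5 sham libraries held 5.01, 5.84, 20.2, 20.3 and 89.0 CPM. RYGB replicate 12, at 5.50 CPM, was the only RYGB library above a sham library; the other 13 lay below all 12. The log2 fold change was -3.95 (SE 0.497), and it lay between -4.23 and -3.67 in 26 fits that each left out 1 library of these groups. Over both batches, 0.024% of all genes tested had groups without overlap, and Ltc4s, which overlapped through replicate 12, was not among them. That share was not computed for batch A alone. Here and below, no share was computed for counts of libraries in groups that overlapped in part. In this comparison 3.12% of genes tested passed an adjusted p of 0.05, and Ltc4s was the only one of the 8 to do so; nothing is read from this count, since the comparison chose the gene.

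The BWM livers also held little Ltc4s, and here the comparison with Lean used no library that had chosen the gene. The 8 BWM libraries held 0.553, 1.22, 1.54, 1.98, 2.18, 2.81, 4.28 and 9.79 CPM. The 6 Lean libraries held 6.22, 6.31, 10.99, 13.3, 29.9 and 31.8 CPM. Thus 7 of 8 BWM libraries lay below every Lean library, and BWM replicate 7 lay among them. Groups without any overlap were found for 0.905% of all genes tested, and Ltc4s was not one of these. The log2 fold change was -2.42 (SE 0.600, edgeR adjusted p = 0.0324). Ltc4s was the only one of the 8 genes called, where 0.528% of all genes were, and Alox15 was the only other one at an unadjusted p under 0.05, where 6.95% of all genes were. An exact permutation test of Ltc4s alone, two-sided on log2(CPM + 0.1), gave a difference of -2.53 with p = 0.002 (adjusted p = 0.00999 over 5 such tests; smallest possible p 0.000333). The edgeR call was near its threshold: it was lost without BWM replicate 2, 3, 4, 5, 6 or 8 or Lean replicate 1 or 3, with fold changes from -2.98 to -2.12 and adjusted p from 0.00652 to 0.181 over all 14 such fits. In batch A alone the adjusted p was 0.00682.

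**Figure D1:**
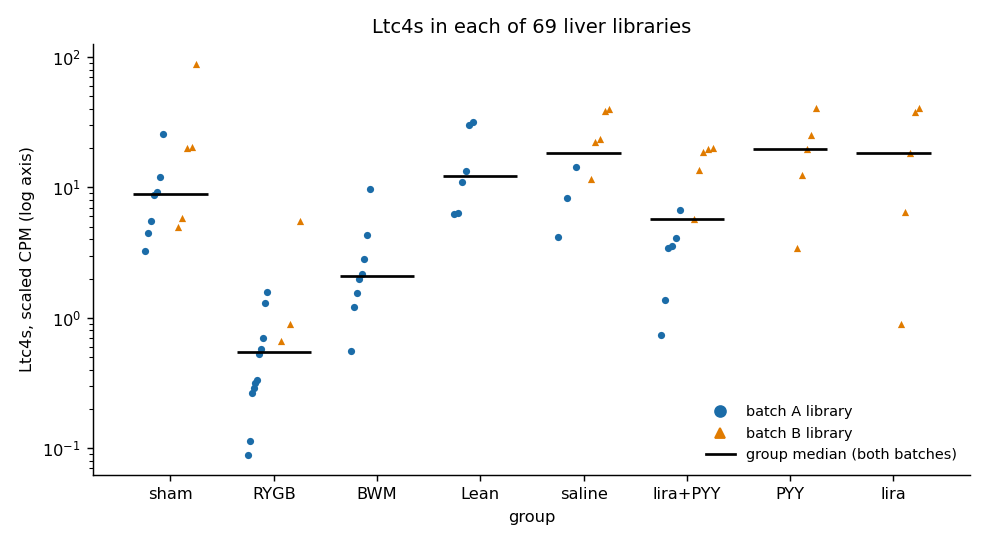
Scaled CPM of Ltc4s (log axis) in each of 69 libraries by group, with batch A as circles, batch B as triangles and the group median over both batches as a line. RYGB libraries reached at most 5.50 CPM and 7 of 8 BWM libraries lay below all 6 Lean libraries, while batch B libraries tended to lie above batch A libraries of the same group.

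RYGB lay below BWM, too. In batch A, which holds all BWM libraries, 7 of 11 RYGB libraries were below the lowest BWM library, and the log2 fold change was -2.40 (SE 0.530). Without BWM replicate 7, the highest of its group, it was -1.85. BWM versus sham gave -1.55 (SE 0.544) and Lean versus sham 0.87 (SE 0.544). For Ltc4s these 3 values are descriptions. For the other 7 genes the same comparisons were tests, and edgeR, DESeq2 and limma called 0 in each. At an unadjusted p under 0.05 edgeR gave 2 of these 7 in RYGB versus BWM (Alox5 and Alox15), 1 in BWM versus sham (Alox15) and 0 in Lean versus sham. Over the whole table, 1.27%, 0.042% and 0.612% of genes were called in these 3 comparisons, and 7.91%, 3.18% and 6.07% had an unadjusted p under 0.05.

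Under the drugs, Ltc4s levels overlapped with saline. In batch A, the 6 liraglutide+PYY3-36 libraries held 0.734, 3.49 and 6.74 CPM (lowest, median and highest) and the 3 saline libraries 4.15, 8.25 and 14.2 CPM. In batch B, the 5 liraglutide+PYY3-36 libraries held 5.70, 13.6, 18.8, 19.6 and 20.0 CPM and the 5 saline libraries 11.6, 22.2, 23.6, 38.4 and 39.7 CPM. The medians were lower under the combination in both batches, and the log2 fold change was -1.08 (SE 0.503; 95% interval -2.07 to -0.10), which did not pass after correction (edgeR unadjusted p = 0.0351, adjusted p = 0.454). Exact permutation tests within a batch gave p = 0.0714 in A and p = 0.111 in B, against smallest possible values of 0.0119 and 0.00794 (adjusted p = 0.179 and 0.185).

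With 1 drug alone, libraries varied widely. The 5 PYY3-36 libraries held 3.44, 12.5, 19.7, 25.4 and 40.3 CPM and the 5 liraglutide libraries 0.890, 6.45, 18.5, 37.7 and 40.6 CPM. The lowest of each, PYY3-36 replicate 5 and liraglutide replicate 4, are among the 6 libraries that stood apart. The log2 fold change against saline was -0.51 (SE 0.639, 95% interval -1.76 to 0.74, edgeR adjusted p = 0.974) for PYY3-36 and -0.47 (SE 0.638, 95% interval -1.72 to 0.78, edgeR adjusted p = 0.999) for liraglutide. Exact permutation tests within batch B gave p = 0.397 for PYY3-36 and p = 0.325 for liraglutide (adjusted p = 0.397 for both). With 5 libraries a group, intervals of this width leave room for falls of 1.7 on the log2 scale as well as for none. The effect of RYGB over sham minus that of the combination over saline was -2.87 (SE 0.710), and sham differed from saline by 0.16 (SE 0.500), both as descriptions.

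By median in batch A, the order of Ltc4s was RYGB (0.332 CPM), BWM (2.08 CPM), liraglutide+PYY3-36 (3.49 CPM), saline (8.25 CPM), sham (8.75 CPM) and Lean (12.2 CPM), and every neighbouring pair overlapped. In batch B, RYGB (0.899 CPM) was followed by liraglutide (18.5 CPM), liraglutide+PYY3-36 (18.8 CPM), PYY3-36 (19.7 CPM), sham (20.2 CPM) and saline (23.6 CPM), and here, too, neighbours overlapped.

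Lta4h, the other enzyme that uses leukotriene A4, had the most even group means of the 8 genes. Its group means lay between 16.1 ± 2.91 CPM (SD, n = 11, liraglutide+PYY3-36) and 18.9 ± 2.14 CPM (SD, n = 8, BWM), a range smaller than the SD within several groups. In RYGB versus sham it had a log2 fold change of -0.02 (SE 0.121, 95% interval -0.26 to 0.22). In BWM versus Lean, where Ltc4s was called, it had 0.16 (SE 0.164, 95% interval -0.17 to 0.48, edgeR adjusted p = 1). What spread there was lay elsewhere: the 6 libraries that stood apart on the first principal component held 7.30 to 18.0 CPM of Lta4h (median 9.93) and the other 22 batch B libraries 12.2 to 23.6 CPM (median 17.8). Of these 6 libraries, 4 lay below all other 63. These 4 come from 4 groups. The part of what sets the 6 libraries apart in the Lta4h values was not tested.

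**Figure D2:**
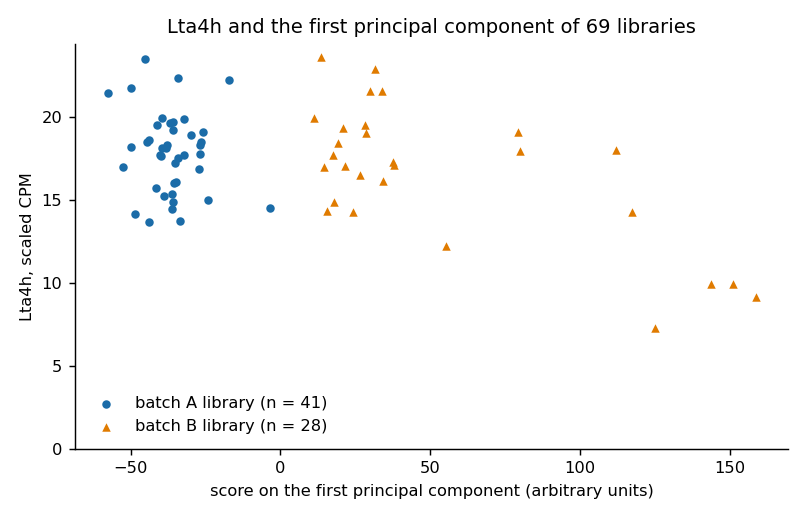
Scaled CPM of Lta4h in each library against its score on the first principal component of log2 CPM (arbitrary units), with batch A as circles (n = 41) and batch B as triangles (n = 28). The 4 lowest Lta4h values, between 7.30 and 9.94 CPM, all came from the 6 libraries with scores of 112 or more.

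Upstream of both, Alox5 and Alox5ap were low but measurable. Alox5 had group means between 0.139 ± 0.0949 CPM (SD, n = 8, BWM) and 0.360 ± 0.197 CPM (SD, n = 8, saline), from at most 16 counts in a library. Under liraglutide+PYY3-36, Alox5 reached at most 0.314 CPM, a level exceeded by 5 of 8 saline libraries. How many of all genes show as much was not computed. The log2 fold change was -1.03 (SE 0.399), which did not pass after correction (edgeR unadjusted p = 0.0121, adjusted p = 0.454). In RYGB versus sham it was 0.15 (SE 0.338), and in RYGB versus BWM 0.86 (SE 0.396, edgeR adjusted p = 0.54).

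Alox5ap, the partner of Alox5, had group means from 0.898 ± 0.385 CPM (SD, n = 11, liraglutide+PYY3-36) to 1.40 ± 0.535 CPM (SD, n = 5, liraglutide). Its log2 fold change was 0.02 (SE 0.214) in RYGB versus sham, -0.42 (SE 0.288, edgeR adjusted p = 0.97) in BWM versus Lean and -0.15 (SE 0.259, edgeR adjusted p = 0.825) in liraglutide+PYY3-36 versus saline. Cysltr1, a receptor for the product of Ltc4s, had group means between 0.396 ± 0.153 CPM (SD, n = 8, saline) and 0.666 ± 0.378 CPM (SD, n = 5, PYY3-36). Its log2 fold change was 0.11 (SE 0.258) in RYGB versus sham and -0.50 (SE 0.338, edgeR adjusted p = 0.964) in BWM versus Lean. Neither gene was called in any comparison tested.

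Alox15, a lipoxygenase that oxidises arachidonic acid at another carbon and takes part in lipoxin formation, had the next largest fold change after Ltc4s in BWM versus Lean, with a wide error. The BWM libraries held 0.0381 to 0.379 CPM (median 0.118) and the Lean libraries 0.139 to 1.13 CPM (median 0.566). They overlapped, with 5 of 8 BWM libraries below every Lean library, a count whose share over all genes was not computed. The log2 fold change was -1.60 (SE 0.687, edgeR unadjusted p = 0.0229, adjusted p = 0.539), and it was not called. BWM versus sham gave -1.55 (SE 0.630, edgeR adjusted p = 1) and RYGB versus BWM 1.32 (SE 0.605, edgeR adjusted p = 0.533). RYGB (median 0.238 CPM) and sham (median 0.244 CPM) were alike in their middle, with 1 library above 2.2 CPM in each, and their log2 fold change was -0.23 (SE 0.487). Under liraglutide+PYY3-36 the 11 libraries held 0.318 to 1.25 CPM (median 0.709) against 0.0837 to 0.754 CPM (median 0.317) in saline, a log2 fold change of 1.01 (SE 0.580, edgeR adjusted p = 0.476). Liraglutide alone gave 1.05 (SE 0.711, edgeR adjusted p = 0.912), and 0.23 without liraglutide replicate 5. Leaving out sham replicate 4 turned the RYGB versus sham value to 0.38, and leaving out RYGB replicate 10 moved it to -0.78.

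Ptgs1, the constitutive cyclooxygenase, was the abundant one in these livers. Its group means lay between 14.6 ± 2.203 CPM (SD, n = 11, liraglutide+PYY3-36) and 23.1 ± 8.45 CPM (SD, n = 5, liraglutide). In batch A, the RYGB libraries held 10.2 to 26.8 CPM (median 18.8) and the sham libraries 8.38 to 17.7 CPM (median 13.4), and in batch B the order of medians was the opposite, 19.8 CPM after RYGB and 22.4 CPM after sham. The log2 fold change over both was 0.27 (SE 0.142). Under liraglutide+PYY3-36, 7 of 11 libraries lay below every saline library, a count whose share over all genes was not computed. The log2 fold change was -0.32 (SE 0.163, edgeR unadjusted p = 0.056, adjusted p = 0.454), and it was not called. As a description, the effect of RYGB over sham minus that of the combination over saline was 0.59 (SE 0.213), and edgeR did not call it.

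Hpgds, which makes prostaglandin D2, had group means between 2.27 ± 0.696 CPM (SD, n = 5, PYY3-36) and 4.18 ± 1.54 CPM (SD, n = 5, liraglutide). Its log2 fold change was -0.10 (SE 0.212) in RYGB versus sham and 0.10 (SE 0.285, edgeR adjusted p = 1) in BWM versus Lean. In PYY3-36 versus saline it was -0.62 (SE 0.318, edgeR adjusted p = 0.947), and 6 of 8 saline libraries lay above every PYY3-36 library. The share of all genes with such a count was not computed, and Hpgds was not called. Ptgs2 was at 0 in all 8 saline libraries and reached at most 0.133 CPM, in a RYGB library, while Ptges was at 0 in all 8 BWM libraries and reached at most 0.148 CPM, in a sham library. With the filter on low counts, these 2 genes were not tested. Without it, neither was called in any comparison.

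**Figure D3:**
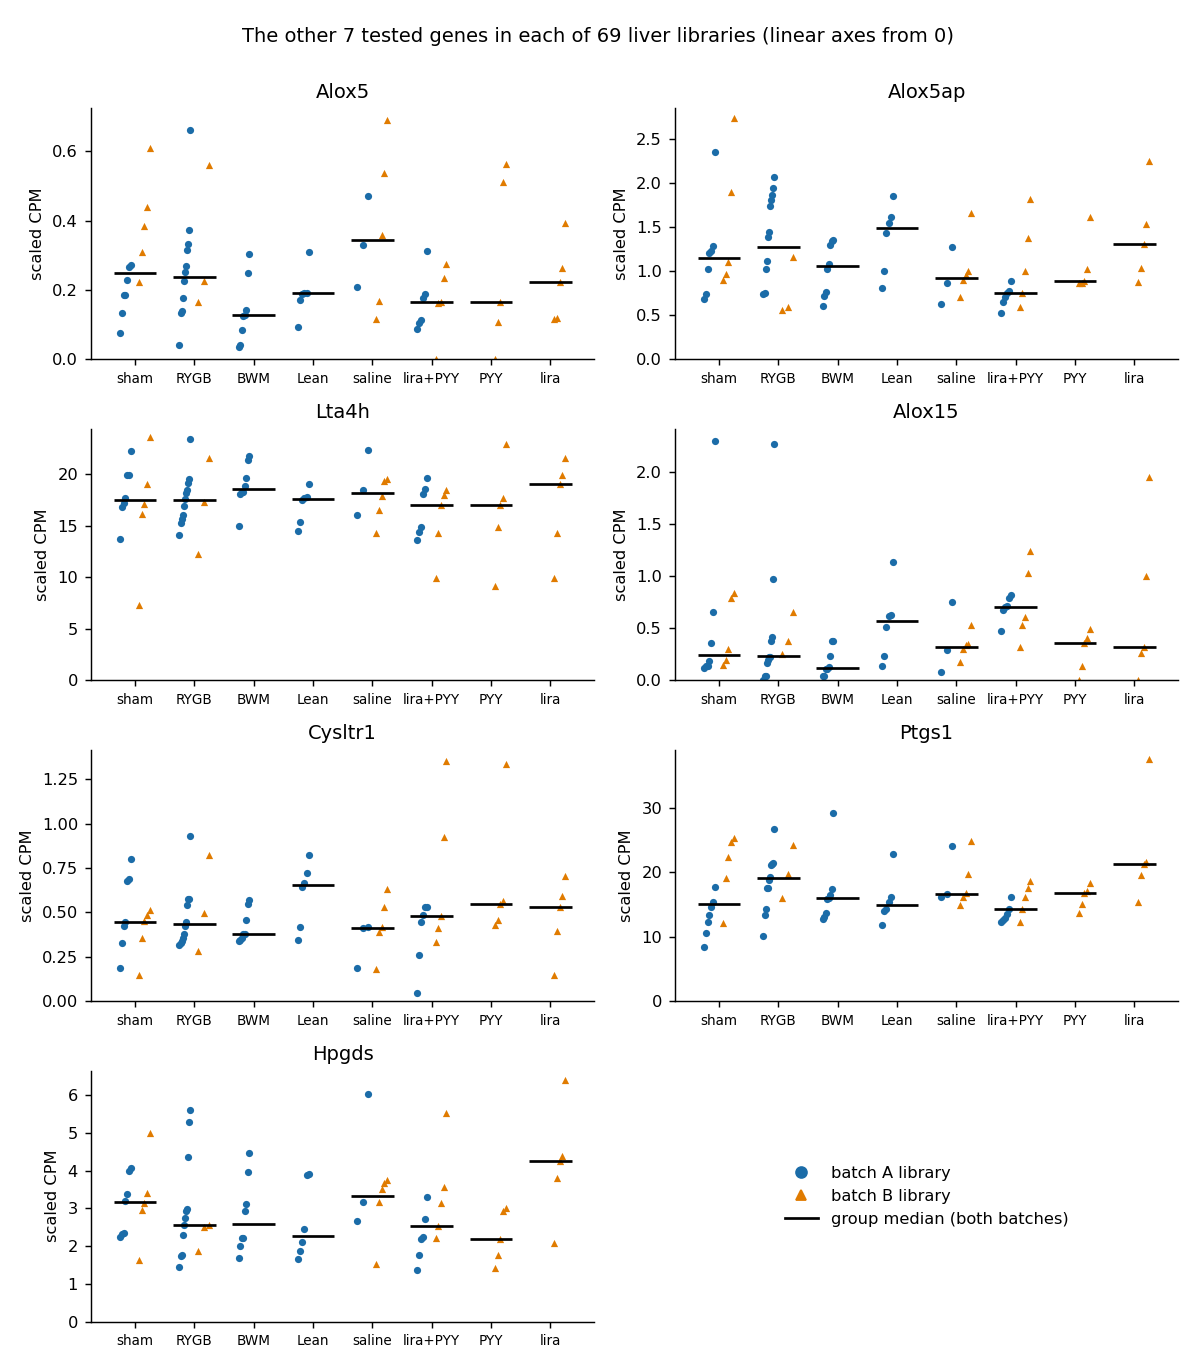
Scaled CPM (linear axes from 0) of Alox5, Alox5ap, Lta4h, Alox15, Cysltr1, Ptgs1 and Hpgds in each of 69 libraries by group, with batch A as circles, batch B as triangles and group medians over both batches as lines. Groups overlapped for each of the 7 genes in RYGB versus sham, BWM versus Lean and each drug versus saline.

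Counted over the 8 genes, edgeR called 0 in each drug comparison. In liraglutide+PYY3-36 versus saline 2 had an unadjusted p under 0.05 (Ltc4s and Alox5) and so had 10.9% of all genes, of which 0.006% were called. In PYY3-36 versus saline 0 of the 8 and 4.95% of all genes had one, with 0% called, and in liraglutide versus saline 0 of the 8 and 6.22%, with 0.006% called. Limma also called 0 of the 8 in these 3 comparisons, and DESeq2 called 0 in PYY3-36 versus saline and in liraglutide versus saline. In liraglutide+PYY3-36 versus saline DESeq2 gave no adjusted p for any of the 8, so nothing can be read from it there. In sham versus saline edgeR called 0 of the other 7 genes and 0% of all genes, with 0 of the 7 and 2.58% of all genes at an unadjusted p under 0.05. The drug comparisons share the 8 saline libraries.

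**Figure D4:**
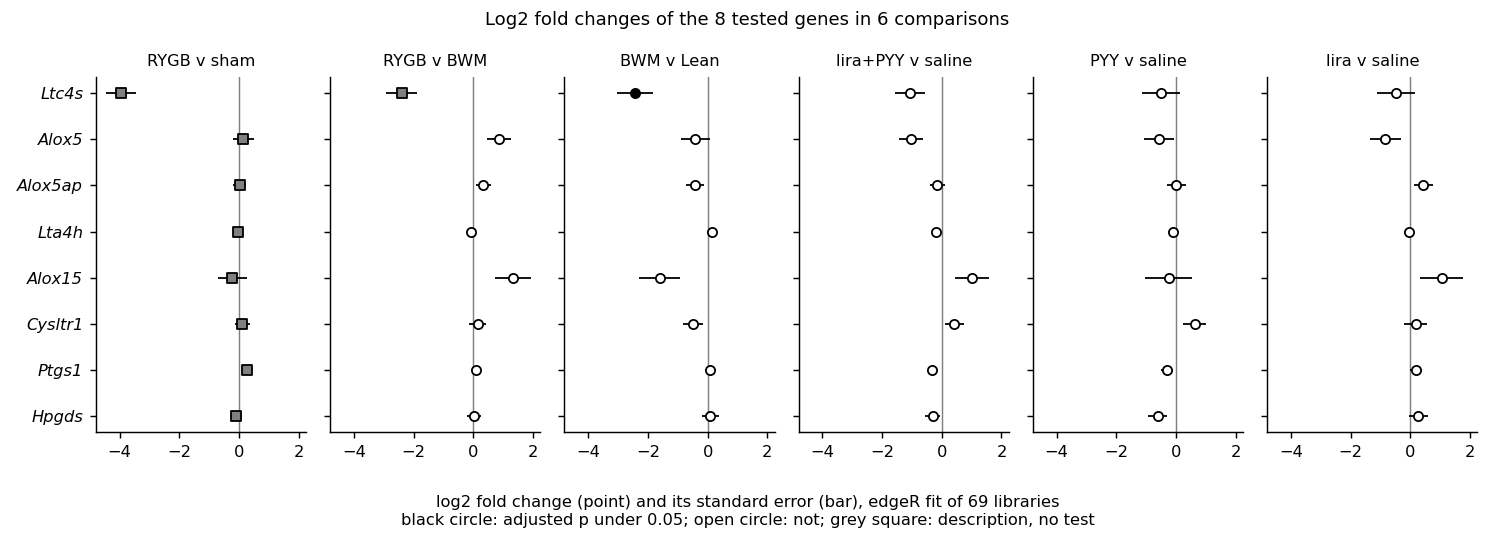
Log2 fold changes (points) with standard errors (bars) of the 8 tested genes in 6 comparisons, from 1 edgeR fit of 69 libraries, with black circles for an adjusted p under 0.05, open circles for others and grey squares for values given as descriptions. Ltc4s stood at -3.95 in RYGB versus sham, -2.40 in RYGB versus BWM and -2.42 in BWM versus Lean, while none of the other 7 genes was called.

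A wider list of 57 genes of these pathways held phospholipases, other leukotriene and lipoxygenase genes, prostanoid synthases and receptors, and epoxide hydrolases. Of these, 56 were found and 42 tested. In RYGB versus sham, where 3.12% of all genes were called, 1 of the 42 was called higher and 3 lower, and the median log2 fold change was 0.16 against -0.005 over all genes. Ephx2, the soluble epoxide hydrolase that turns epoxides of arachidonic acid into diols, had means of 111 ± 36.4 CPM (SD, n = 11) after RYGB and 59.5 ± 16.5 CPM (SD, n = 7) after sham in batch A, and a log2 fold change of 0.69 (SE 0.172) over both batches. It was 0.89 in batch A alone and 0.08 in batch B alone.

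The 3 genes called lower were Mgst1, Cyp4f39 and Ephx1. Mgst1, a microsomal glutathione transferase of the protein family to which Ltc4s and Alox5ap belong, had 2074 ± 193.8 CPM (SD, n = 11) after RYGB and 2713 ± 475.8 CPM (SD, n = 7) after sham in batch A, and a log2 fold change of -0.44 (SE 0.106) over both batches. Cyp4f39, of a cytochrome P450 family that oxidises fatty acids and eicosanoids at their far end, had -0.95 (SE 0.230). Ephx1, the microsomal epoxide hydrolase, had -0.94 (SE 0.269). However, 55.1% of its values were not whole, so that some of its reads were shared with other loci or overlapping genes. All 4 genes were also called without the 6 libraries that stood apart, whereas 0 were called in batch B alone, which holds 3 RYGB and 5 sham libraries. In batch A alone Cyp4f39 and Ephx1 were not called, without a batch term Ephx1 was not, and with the replicate number as a block neither Mgst1 nor Ephx1 was, so that Ephx2 was the only one called under each of these settings other than batch B alone. With limma 11 of the 42 were called, but in this comparison limma also called many more of all genes than edgeR did, as given at the end. The rise is therefore not read as a result about these genes.

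In RYGB versus BWM, where 1.27% of all genes were called, 3 of the 42 were called higher and 0 lower. They were Fam213b, a prostaglandin F synthase, at 0.80 (SE 0.162, edgeR adjusted p = 0.00223), Ephx2 at 0.77 (SE 0.193, edgeR adjusted p = 0.0204) and Cyp4f5 at 1.01 (SE 0.215, edgeR adjusted p = 0.00385). Of Cyp4f5, 98.6% of the values were not whole, so part of its level cannot be told apart from that of other loci or overlapping genes. In batch A, Fam213b had 15.4 ± 4.28 CPM (SD, n = 11) after RYGB, 12.4 ± 3.28 CPM (SD, n = 7) after sham and 8.88 ± 1.65 CPM (SD, n = 8) in BWM. In each of the 7 comparisons without RYGB edgeR called 0 of the 42. At an unadjusted p under 0.05 it gave 0 to 6 of the 42 in these, with the 6 in Lean versus sham, where 6.07% of all genes had one, against 2.58% to 10.9% of all genes over the 7 comparisons. None of the 42 was called in BWM versus Lean, the comparison in which Ltc4s was.

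Ltc4s is expressed by mast cells and other leukocytes, so markers of these cells were read beside it. Of 10 mast cell markers, 7 were tested. In RYGB versus sham all 7 had a negative fold change (median -0.66 against -0.005 over all genes) and 0 were called, and in BWM versus Lean 5 of 7 were negative (median -0.83 against -0.0088) and 0 were called. Their summed level was 2.75 to 20.1 CPM (median 5.25) after RYGB, 5.59 to 20.7 CPM (median 10.1) after sham, 4.79 to 28.9 CPM (median 6.51) in BWM and 9.31 to 14.9 CPM (median 11.1) in Lean. Most of it was Hdc and Kit, with medians of 4.43 and 2.07 CPM over all libraries. Of the mast cell proteases, Tpsab1 and Mcpt1 had a median of 0. Mcpt2, Cpa3, Cma1 and Tpsb2 had medians of 0.332, 0.193, 0.177 and 0.122 CPM. The part of mast cells in the Ltc4s values was not tested.

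Of 7 basophil and eosinophil markers, 5 (Prss34, Epx, Prg2, Ccr3 and Il5ra) had medians under 0.1 CPM, and the other 2 were tested. Siglec5 had a positive value of 0.83 on the log2 scale (SE 0.470) after RYGB against sham. The basophil protease Mcpt8 stood at -1.32 (SE 0.248) after RYGB against sham, where it was called lower. Against BWM, where 1.27% of all genes were called, it stood at -1.29 after RYGB and was called lower as well. In BWM versus Lean, Mcpt8 stood at -0.23 on the log2 scale (SE 0.314, edgeR adjusted p = 1). The 12 Kupffer cell and macrophage markers went the other way: all 12 were positive in RYGB versus sham (median 0.28), with 1 called higher, and 6 of 12 were positive in BWM versus Lean (median 0.01). Their summed level was 279 to 931 CPM (median 469) after RYGB and 244 to 645 CPM (median 368) after sham. Also in RYGB versus sham, 6 of 6 erythrocyte markers (median -0.64) and 8 of 9 of T and NK cells (-0.29) were negative. Those of neutrophils (3 of 3, median 0.34) and stellate cells (5 of 7, median 0.09) leaned positive. In BWM versus Lean, most further lists leaned the way of Ltc4s, each with 0 called. Negative were 4 of 4 B cell markers (median -0.74), 8 of 9 of T and NK cells (-0.31) and 6 of 6 of sinusoidal endothelium (-0.62). The same held for 6 of 7 of hepatocytes (-0.26), 5 of 6 of erythrocytes (-0.69) and 4 of 5 of monocytes (-0.49). It held, too, for 3 of 3 of neutrophils (-0.36), 5 of 7 of stellate cells (-0.27) and 3 of 5 of cholangiocytes (-0.08). Of endothelial and of hepatocyte markers, 2 each had an unadjusted p under 0.05. Platelet markers were positive in 2 of 3 (median 0.15). The summed level of the endothelial markers was 76.6 to 161 CPM (median 129) in BWM and 146 to 225 CPM (median 193) in Lean. The part of these cells in the Ltc4s values was not tested either.

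The genes whose pattern was most like that of Ltc4s were ranked by Pearson's r of log2 CPM over 69 libraries with batch removed, among 11295 named genes. The libraries share depth, group and sample quality, so that r is a description and no p is given. The 8 highest were Akr1c3, an aldo-keto reductase (r = 0.77), Abhd2 and Stac3 (both 0.71), C6, a complement component, and Tomm40l (both 0.70), Nrep (0.69), Smim24 (0.68) and Mtmr7 (0.67). The 4 lowest were Igfbp2, which binds insulin-like growth factors (-0.82), Abca8 (-0.74), the mitochondrial isocitrate dehydrogenase Idh2 (-0.73) and Vnn1 (-0.69). Without the 14 RYGB libraries r was 0.65 for Akr1c3 and -0.57 for Igfbp2, and 2 of the 8 highest genes were again among the 8 highest.

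Among the other 7 genes of the set, r with Ltc4s lay between -0.19 (Ptgs1) and 0.38 (Alox15). Within groups and batches, from the residuals of the fit, it was 0.52 for Alox15 and 0.40 for Lta4h, and between -0.16 (Alox5ap) and 0.09 (Cysltr1) for the other 5. These 12 genes were ranked on all libraries, so that their values in any comparison are descriptions. In BWM versus Lean, C6 stood at -1.10 and Idh2 at 1.12 on the log2 scale, the largest values of the 12. The others lay between -0.78 (Mtmr7) and 0.71 (Vnn1), with Akr1c3 at -0.46 and Nrep at -0.02. Igfbp2, with the lowest r of all, stood at 5.54 on the log2 scale after RYGB against sham and at 0.13 in BWM versus Lean.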

How the data were processed

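The authors sequenced stranded poly(A) libraries of liver, aligned the reads with STAR 2.7.2b to Rnor_6.0 after bcl2fastq 2.20.0.422 and cutadapt 2.5, and counted them by strand with featureCounts 1.6.4. They deposited estimated counts per gene, not normalized, in which reads with several matches or over several genes were divided (15.9% of values not whole). After rounding, edgeR 4.0.16 (R 4.3.3) was run on these counts: filterByExpr (16676 of 38513 genes kept), TMM, and 1 robust quasi-likelihood fit of 69 libraries with group and batch, with p-values adjusted over all genes tested (Benjamini and Hochberg) and called under 0.05. Total counts ranged from 9110860 to 27559144, so that genes with few reads are measured least precisely. The labels number replicates without naming animals, so p-values measure the spread between libraries. No 2 libraries of a group agreed within sampling noise. Genes named are the 10, every wider-list gene called, and the 8 most and 4 least like Ltc4s among named genes whose average log2 CPM was 0 or more. Members and lists were chosen with earlier results of these data known. Alternatives were DESeq2 1.42.0 (group and batch, shrunken fold changes), limma 3.58.1 (voom with quality weights), other scaling, filter, rounding and batch terms, the replicate number as a block, and leaving out libraries. Likeness without RYGB libraries, the permutation tests of Ltc4s and the wider list by batch were added after seeing the data. The test was tried on simulated counts.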

Additional observations from a re-analysis of the deposited data

Results flagged for a closer look

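Of 40 combinations of a gene and a group of 4 to 10 libraries, 5 held a library farther from its group than Dixon's limit. Chance gives about 1 in 20 only where values are normally distributed, which was not tested for these CPM values. All 5 were the highest of their group. Ltc4s in BWM replicate 7 was 9.79 CPM, with the next library at 4.28 CPM. Ptgs1 in BWM replicate 4 was 29.2 CPM, with the next at 17.4 CPM, and in liraglutide replicate 2 it was 37.5 CPM, with the next at 21.6 CPM. In PYY3-36 replicate 5, which is one of the 6 libraries that stood apart, Alox5ap was 1.62 CPM, with the next at 1.02 CPM, and Cysltr1 was 1.33 CPM, with the next at 0.562 CPM.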

How the results depend on the processing

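Of the 8 genes, the number called in RYGB versus sham was 1 and became 0 in batch B alone (Ltc4s -3.58) and 2 with limma (Ptgs1 0.37). In BWM versus Lean it was 1 and became 0 without a filter on low counts, without a batch term and with the replicate block (Ltc4s -2.59, adjusted p = 0.0548), and lay between 0 and 1 when single libraries were left out. Adjusted p for Ltc4s there was 0.0643 without a filter and 0.191 without a batch term, and 0.0107 with limma and 0.00248 with DESeq2. In RYGB versus BWM it was 1 and became 0 without a batch term (Ltc4s -1.82), with the replicate block (-2.06) and without BWM replicate 7, a range of 0 to 1 over single libraries left out. For the difference of effects it was 0, and 1 with DESeq2 (Ltc4s -1.46). The causes of these changes were not tested. DESeq2's shrunken fold change of Ltc4s was -2.02 in RYGB versus sham. Some directions reversed, all without a call. Ltc4s did so in liraglutide versus saline without a batch term (0.042). In batch B alone, Alox5ap (0.10) and Hpgds (0.14) did so in liraglutide+PYY3-36 versus saline. When single libraries were left out, Ptgs1 (-0.066 to 0.24) and Hpgds (-0.029 to 0.25) did so in BWM versus Lean. So did values not printed above, among them that of Alox15 in Lean versus sham (-0.29 to 0.70). Among the values given as descriptions, those of RYGB versus sham also changed sign when single libraries were left out for Alox15 (-0.78 to 0.38), Alox5 (-0.027 to 0.26), Alox5ap (-0.059 to 0.16) and Lta4h (-0.084 to 0.027), and that of Ltc4s in sham versus saline (-0.21 to 0.36). They changed sign in batch B alone for Alox5, Alox5ap (-0.97), Lta4h and Ptgs1, in batch A alone for Cysltr1, with the replicate block for Alox5, Alox5ap, Lta4h and Cysltr1, and without a batch term for Alox5ap, as did Ltc4s in Lean versus sham (-0.085) and, also with limma, in sham versus saline (-0.22). Over all genes, the calls in RYGB versus sham went from 520 to 24 in batch B alone and 1576 with limma, in RYGB versus BWM from 212 to 830 with limma, and in BWM versus Lean from 88 to 50 without a batch term and 455 with limma. Of the 8 genes most like Ltc4s, 3 were again among the 8 highest without removing batch, 1 within groups and 2 without RYGB libraries. Replicate numbers did not pair the libraries: of 12 same-numbered pairs of RYGB and sham, 3 had correlated deviations over 0.1 and 3 matched best with their own number. The replicate block took the calls over all genes from 520 to 368 in RYGB versus sham and changed no other call among the 8 genes. Alox5, Alox15, Cysltr1, Ptgs2 and Ptges had few reads, and depth limits what can be said of them.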
